A study of Mus musculus with 9 samples.

Results

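The genes described here encode ABC transporters of the subfamilies A, B, C and G and organic ion carriers of the Slc22a, Slc47a and Slco families. They were chosen by symbol alone, as entries of the deposited gene table whose symbol starts with Abca, Abcb, Abcc, Abcg, Slc22a, Slc47a or Slco and a digit. The rule found 85 genes among 22013 entries, of which 33 had enough transcript to be tested. RNA was sequenced from 9 libraries of mouse primary cells, labelled as fibroblasts and taken from the membranes around the spinal cord, 3 libraries for segment C, 3 for T and 3 for L. The labels do not spell out these letters, and the tissue field reads spinal cord although the protocol names meninges. No group was treated or injured, and the labels give no genotype, strain, sex or age, nor the number of animals behind a library. The stated question is how fibroblasts of the segments differ. Whether replicates are separate animals is not labelled, so p-values reflect only how far these libraries spread, and that spread may be technical.

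ABC transporters use ATP to move substrates across membranes. P-glycoprotein and the breast cancer resistance protein (Abcg2) pump drugs out of cells, the Abcc proteins export conjugates and signalling nucleotides, and many Abca proteins move lipids. Slc22a and Slco carriers exchange organic anions, cations and hormones, often in the uptake direction, and Slc47a proteins extrude cations. At the arachnoid, the meningeal layer that separates blood from cerebrospinal fluid, such transporters act beside tight junctions as a chemical barrier.

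Total estimated counts per library ran from 15652558 to 25204310, and 12057 to 12305 genes reached 1 TPM (an abundance scaled to gene length and to a fixed total per library). Transcripts of 10 fibroblast markers summed to between 13665 and 16609 TPM per library. Markers of other cells were present in part. Of 10 endothelial markers, Cldn5 had 0 counts and Pecam1 and Vwf stayed under 1 TPM, while Cdh5 lay between 42.7 and 89.4 TPM. Of 7 neuronal markers, Rbfox3, Snap25, Syt1 and Nefl stayed under 1 TPM, while Stmn2 reached 164.6 and Tubb3 72.7 TPM in C. The leukocyte marker Ptprc stayed under 1 TPM, while Lyz2 of myeloid cells lay between 68.7 and 230.2 TPM and the astrocyte marker Gfap between 15.3 and 112 TPM. No replicate pair was a duplicate: counts of all 9 pairs varied beyond sampling noise, most between T replicates 1 and 2 (chi-square divided by its degrees of freedom, 19.55) and least between L replicates 1 and 2 (3.66).

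Transporter levels spanned several orders of magnitude. Abcg2 was the highest, the only gene of the 85 with a mean over 100 TPM, followed by Abcc5, Slco3a1, Abca1, Abca3, Slc22a23, Abcb10, Abcc1, Abca2 and Abcb1b. In all, 13 further genes averaged between 10 and 100 TPM, 18 between 1 and 10, and 32 lay above 0 and under 1. The other 21 had 0 counts in all 9 libraries, which allows at most 3 counts over the 9 together, or a CPM of 0.0175. Those 21 included Abcc8, a sulfonylurea receptor, the sterol pumps Abcg5 and Abcg8, the cation extruder Slc47a2 and 9 Slc22a genes.

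**Figure D1:**
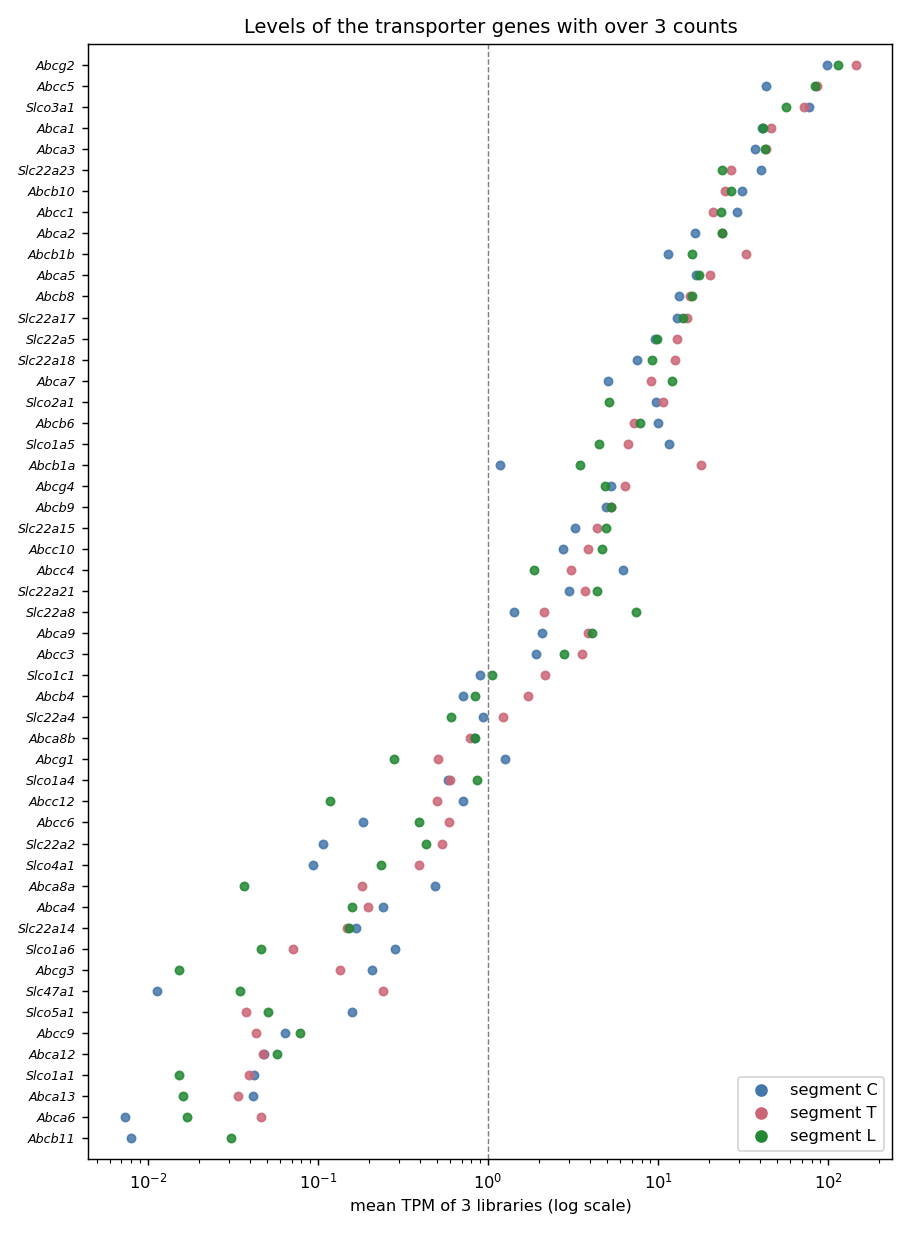
Mean TPM of 3 libraries per segment (log scale) for 52 transporter genes with over 3 counts in all, ordered by overall mean. Each point is a segment, a segment at 0 is not drawn, and the dashed line marks 1 TPM. Abcg2 stands highest. The T point of Abcb1a lies far above its C and L points, and the L point of Slc22a8 above its C and T points.

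The test took genes that reached 1 TPM in 3 or more libraries, which kept 33 of the 85: 6 of 16 Abca, 8 of 10 Abcb, 5 of 10 Abcc, 2 of 6 Abcg, 8 of 25 Slc22a, 0 of 2 Slc47a and 4 of 16 Slco genes. None of the 33 reached 1 TPM in 1 segment only, though outside T Abcb4 did so in L replicate 2 alone. Some difference between segments was called for 23 of the 33 at an adjusted p under 0.05 (F test in edgeR), beside 55.9% of all 12553 genes tested. Between T and C, 19 differed (background 51.1%), 13 of them higher in T (background 25.8%) and 6 lower (background 25.2%). Between L and C, 19 also differed (background 49.6%), 11 higher in L (background 24.4%) and 8 lower (background 25.2%). L against T gave 11 (background 16.1%), with 2 higher in L (background 7.88%) and 9 lower (background 8.21%). That last count fell to 7 without L replicate 3, with 2 higher and 5 lower. The 3 comparisons share libraries, so their counts are not independent. Median log2 fold changes of the 33 were 0.22 for T against C, 0.11 for L against C and -0.15 for L against T, beside 0.02, 0.01 and -0.00 over all genes tested.

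The split by direction depends on the scale. On log2(TPM + 1) in limma the median of all genes moved by 0.13 for T against C and 0.10 for L against C. There 4110 genes rose and 2214 fell from C to T, where edgeR gave 3240 and 3169, and 3737 were higher and 2246 lower in L, against 3064 and 3166. Of the 33 transporters, 15 were then higher and 6 lower in T, and 13 and 7 in L. Centring each library on its median gave 2491 higher and 3313 lower genes in T and 2282 and 3399 in L, and among the 33 it gave 11 and 7 in T and 7 and 8 in L.

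**Figure D2:**
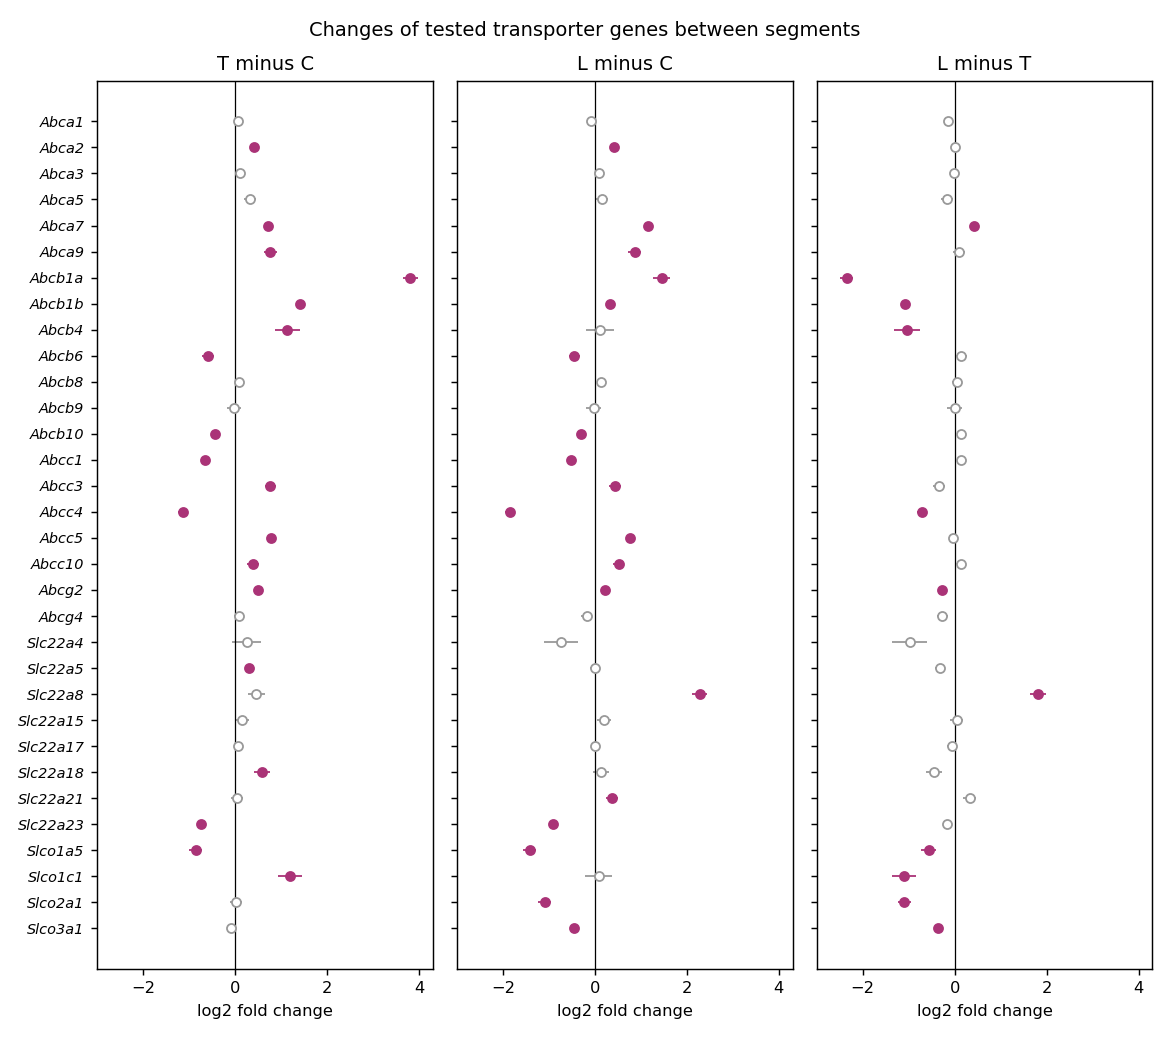
Log2 fold change (horizontal axis) with its standard error for 32 of the 33 tested transporter genes, in the 3 comparisons. Filled points passed an edgeR adjusted p of 0.05 and open points did not. Abcb1a has the largest rise from C to T, at 3.80, and Slc22a8 the largest from C to L, at 2.27.

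P-glycoprotein transcripts were highest in T. Mice carry a pair of genes for this drug efflux pump, Abcb1a (ENSMUSG00000040584) and Abcb1b. Abcb1a stood at 1.17, 1.17 and 1.20 TPM in C, at 15.2, 19.9 and 18.5 TPM in T and at 2.60, 4.38 and 3.44 TPM in L. Its segments did not overlap, and T lay far above both others. It was 13.9-fold higher in T than in C (log2 3.80, SE 0.16, edgeR adjusted p = 3.59e-10) and 2.74-fold higher in L than in C (log2 1.46, SE 0.18, edgeR adjusted p = 2.08e-05). From T to L it fell 5.08-fold (edgeR adjusted p = 1.05e-07). As these are bulk samples, fewer cells of a type and less RNA per cell cannot be told apart. Abcb1b stood at 12.7, 9.34 and 12.4 TPM in C, 28.2, 38.2 and 32.1 TPM in T, and 16.7, 17.1 and 13.8 TPM in L. Its order over the segments was the same as that of Abcb1a, again without overlap. T exceeded C 2.66-fold (log2 1.41, SE 0.08, edgeR adjusted p = 3.94e-09), L exceeded C 1.25-fold (edgeR adjusted p = 0.00419), and L was 2.12-fold below T (edgeR adjusted p = 3.27e-07). The rise of Abcb1b from C to L did not pass on median-centred log2(TPM + 1) in limma (adjusted p = 0.0784).

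Abcb1a also made up a larger part of the pair in T. Its share of the summed TPM of both genes went from 9.46% ± 1.45 in C to 35.3% ± 1.22 in T, with 17.9% ± 3.89 for L (mean ± SD over 3 libraries). Both genes carry fractional counts, as only 4 of the 85 genes do, so reads that fit either copy were divided between them and the share is uncertain. Summed and tested as 1 gene, an alternative chosen after seeing the data, the pair was 4.26-fold higher in T than in C (edgeR adjusted p = 1.65e-10), 1.47-fold higher in L than in C (edgeR adjusted p = 0.000125) and 2.91-fold lower in L than in T (edgeR adjusted p = 2.42e-08).

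**Figure D3:**
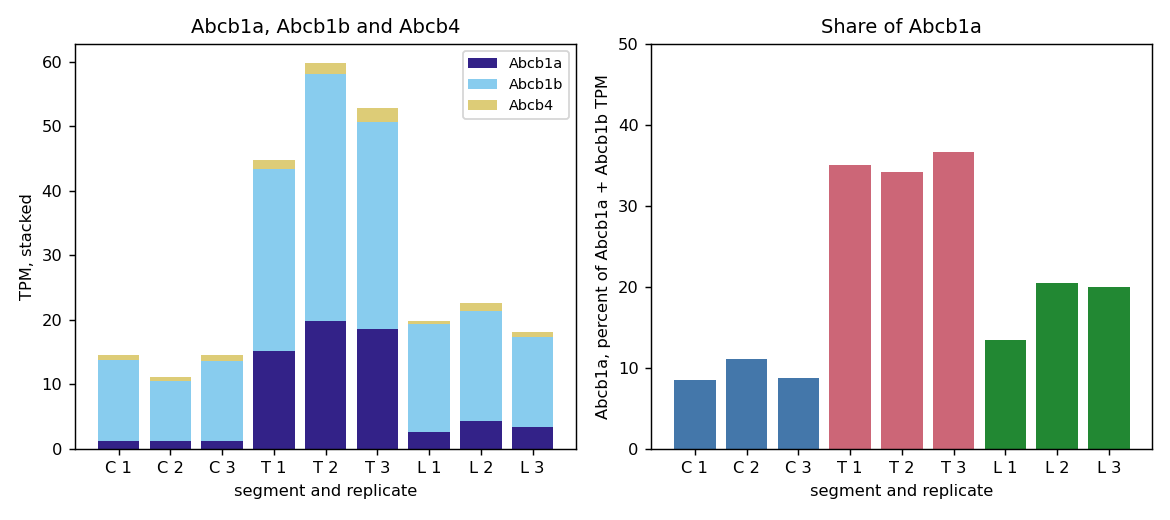
Left, stacked TPM (vertical axis) of Abcb1a, Abcb1b and Abcb4 in each library. Right, Abcb1a as a percentage of the summed TPM of Abcb1a and Abcb1b, coloured by segment. Every T library is above every C and L library in both panels, with a T share of 34.2% to 36.6%.

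Abcb4, which moves phosphatidylcholine into bile in the liver, follows Abcb1a and Abcb1b directly in the RefSeq order of protein-coding genes. Its levels were 0.638, 0.58 and 0.929 TPM in C, 1.37, 1.67 and 2.14 TPM in T, and 0.536, 1.10 and 0.871 TPM in L. T lay above both other segments, whose values overlapped. As outside T only L replicate 2 reached 1 TPM, Abcb4 passed the filter through T, where it was then called higher. It rose from C to T (log2 1.14, SE 0.27, edgeR adjusted p = 0.00355). From T to L it fell 2.04-fold (edgeR adjusted p = 0.0227), a call lost without T replicate 3 (adjusted p = 0.114), L replicate 1 (0.104) or L replicate 3 (0.0585). L and C differed by a log2 of 0.11 (95% interval -0.56 to 0.78), which did not pass.

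Promoter windows of Abcb1a and Abcb1b are shown because these neighbours moved together by different amounts. RefSeq windows on build GRCm38.p6 hold 250 bases before and 50 after the annotated start, and 68 of the 85 genes had one. Capitals mark matches, on either strand, to any of 5 motifs. The letters searched were GGGCGG for the GC box and CCAAT for the box of that name. TATAAA was used for the TATA box. GCGTG stood for the core of the xenobiotic response element, to which the aryl hydrocarbon receptor binds. For the core of the antioxidant response element, to which Nrf2 binds, the letters were TGACNNNGC. No motif was allowed a mismatch, and overlaps were not removed.
Abcb1a: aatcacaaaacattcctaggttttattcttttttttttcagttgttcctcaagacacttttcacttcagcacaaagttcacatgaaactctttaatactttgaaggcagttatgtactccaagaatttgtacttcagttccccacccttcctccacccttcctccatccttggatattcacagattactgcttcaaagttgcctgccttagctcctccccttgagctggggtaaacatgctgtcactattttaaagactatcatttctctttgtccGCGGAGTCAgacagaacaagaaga
Abcb1b: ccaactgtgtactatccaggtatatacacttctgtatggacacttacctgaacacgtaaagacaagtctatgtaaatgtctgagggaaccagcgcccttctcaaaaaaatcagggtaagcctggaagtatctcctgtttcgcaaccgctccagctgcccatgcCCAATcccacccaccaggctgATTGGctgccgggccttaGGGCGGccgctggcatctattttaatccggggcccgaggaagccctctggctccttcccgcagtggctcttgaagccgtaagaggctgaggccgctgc
The Abcb1a window, chr5:8566841-8567140 on the plus strand, is 40.3% G and C and matched only the antioxidant element core, once, at bases 277 to 285. The Abcb1b window, chr5:8797897-8798196 on the plus strand, is 55% G and C, with 1 GC box match and 2 CCAAT box matches, the latter on opposite strands. Among all 32851 windows, 35.7% hold a GC box, 37.4% a CCAAT box, 13.6% a TATA box, 32.4% the xenobiotic core and 12.4% the antioxidant core, and the median G and C content is 52.7%. A match describes letters only.

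A list of 12 arachnoid barrier markers, transporters left out, summed to 186 to 193 TPM in C, 491 to 525 in T and 344 to 365 in L. Of these, 9 were tested. In T 8 were higher than in C, in L 7 were higher than in C, and between L and T 2 were higher in L, 5 lower and 2 did not pass. The median log2 was 2.02 for T against C and 2.11 for L against C, while Krt8, Krt18 and Ocln stayed under 1 TPM in every library. Among them Cldn11, a claudin of arachnoid tight junctions, had 0.772 to 1.40 TPM in C, 107 to 115 in T and 35.4 to 41.2 in L. The order of the sums was not particular to the arachnoid list, as dural markers shared it. Their sums were 2173 to 2343 TPM in C, 2703 to 2820 in T and 2521 to 2632 in L. From C to T, 8 of 9 tested dural markers passed upward and 1 downward. From C to L, 6 passed upward and 2 downward. From T to L, 3 passed upward and 4 downward. Macrophage and microglia markers summed to 171 to 187 TPM in C, 276 to 284 in T and 92.7 to 96.7 in L, with 10 of 12 markers reaching 1 TPM in some library. Lyz2 made up most of that sum, and of 9 tested 2 rose and 2 fell from C to T, while 7 were lower in L than in T. C1qa and C1qb were highest in C, at 14.6 to 16.0 and 6.41 to 8.59 TPM. Astrocyte and ependymal markers summed to 114 to 124 TPM in C, 176 to 180 in T and 48.5 to 52.5 in L, and of 9 tested 6 rose and 3 fell from C to T. Endothelial markers summed to 112 to 124 TPM in C, 52.8 to 54.0 in T and 67.8 to 69.9 in L, mostly from Cdh5. Of 7 tested, 5 were lower and 2, Tek and Egfl7, higher than in C in both T and L. The part of these lists in the transporter levels was not tested.

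Abcg2, the most abundant of the 85 genes, followed the same order with smaller steps. It stood at 103, 95.6 and 96.9 TPM in C, 136, 158 and 143 TPM in T, and 113, 112 and 118 TPM in L, without overlap between segments. The rise from C to T was 1.40-fold (log2 0.49, SE 0.07, edgeR adjusted p = 9.4e-05). L was 1.16-fold above C (edgeR adjusted p = 0.0268) and 1.21-fold below T (edgeR adjusted p = 0.0226), and both calls ended when single libraries were left out. For L against C this held without C replicate 1, 2 or 3 (adjusted p = 0.0545, 0.0865 and 0.0523) or L replicate 1 or 2 (0.09998 and 0.0857), and with median centring in limma (0.396). For L against T it held without T replicate 2 or 3 (0.0843 and 0.0961) or L replicate 3 (0.107). Abcg4, a sterol exporter, did not pass in any comparison, with 5.27 ± 0.374 TPM in C, 6.39 ± 1.67 TPM in T and 4.85 ± 0.566 TPM in L (SD, n = 3).

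All 5 tested Abcc genes differed from C in both T and L, 3 upward and 2 downward, beside 51.1% and 49.6% of all genes tested. Abcc5, an exporter of cyclic nucleotides and organic anions, stood at 45.0, 43.4 and 41.8 TPM in C, 87.0, 86.6 and 84.5 TPM in T, and 83.1, 89.5 and 79.8 TPM in L. T and L overlapped with each other and lay well above C. It rose 1.73-fold from C to T (log2 0.79, SE 0.06, edgeR adjusted p = 6.31e-08) and 1.69-fold from C to L (edgeR adjusted p = 1.28e-07), and L minus T was -0.03 (95% interval -0.15 to 0.09). Abcc3, an exporter of glucuronides and bile acids, rose 1.70-fold in T and 1.34-fold in L relative to C, from 1.92 ± 0.118 to 3.57 ± 0.257 and 2.78 ± 0.143 TPM (SD, n = 3). Its call for L ended with median centring in limma (adjusted p = 0.129). Abcc10 rose 1.31-fold in T and 1.43-fold in L. For T this call ended without C replicate 2 (edgeR adjusted p = 0.0572), without T replicate 1 (0.062) and with median centring in limma (0.229).

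Abcc4 and Abcc1 were the falling members. Abcc4, an exporter of cyclic nucleotides, prostaglandins and urate, had 6.21, 5.79 and 6.78 TPM in C, 2.96, 3.28 and 3.03 TPM in T, and 1.84, 1.95 and 1.82 TPM in L. The segments formed 3 separate steps downward. From C to T it fell 2.21-fold (log2 fell by 1.14, SE 0.10, edgeR adjusted p = 6.12e-07), from C to L 3.61-fold (edgeR adjusted p = 1.25e-08) and from T to L 1.63-fold (edgeR adjusted p = 0.000763). Abcc1, a glutathione conjugate exporter, had 28.5, 29.6 and 29.0 TPM in C, 20.8, 22.7 and 19.8 TPM in T, and 25.8, 21.9 and 22.4 TPM in L. It fell 1.56-fold in T and 1.43-fold in L relative to C (edgeR adjusted p = 1.68e-06 and 1.68e-05), and T and L overlapped. Pial markers summed highest in C too, at 7338 to 7804 TPM against 4866 to 5627 in T and 4711 to 5281 in L, with 7 of 7 lower than in C in both. So did mural markers, at 8315 to 8463, 4822 to 5407 and 6978 to 7644 TPM. Acta2 made up most of that sum, at 7729 to 7853 TPM in C, 4480 to 5051 in T and 6545 to 7206 in L. Higd1b had 0 counts and Kcnj8 stayed under 1 TPM. Of 9 tested mural markers, 7 were lower and 1 higher in T than in C, and 6 lower and 1 higher in L. Neuronal markers summed highest in C as well, at 250 to 260, 43.7 to 47.2 and 61.5 to 64.3 TPM. Of these 4 of 7 stayed under 1 TPM. By counts the 3 tested were lower in T than in C, though Map2 overlapped in TPM (19.6 to 27.3 in C, 22.0 to 24.9 in T). In L, 2 of the 3 were lower than in C and 1 did not pass. Schwann cell markers also summed highest in C, at 96.3 to 108, 53.5 to 57.0 and 74.6 to 80.0 TPM. Of 9 tested, 6 were lower and 3 higher than in C in both T and L. The part of these lists in the fall of Abcc4, Abcc1 and Slco1a5 was not tested.

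Of the 6 tested Abca genes, which mostly move lipids, 3 were higher in T and in L than in C, and the other 3 did not pass in these comparisons. That is 50% called in each, near the background of 51.1% and 49.6% of all genes tested. Abca7, a phospholipid transporter also linked to phagocytosis, stood at 5.05, 5.13 and 5.08 TPM in C, 9.76, 8.59 and 9.11 TPM in T, and 12.4, 11.6 and 12.3 TPM in L. It was the only tested transporter that passed upward in all 3 comparisons, by 1.65-fold in T and 2.21-fold in L relative to C (edgeR adjusted p = 1.21e-05 and 1.35e-07) and 1.34-fold from T to L (edgeR adjusted p = 0.00279). Abca2, a lipid transporter of late endosomes and lysosomes, had 16.4, 17.5 and 15.3 TPM in C, 25.3, 23.0 and 23.5 TPM in T, and 22.0, 24.8 and 24.1 TPM in L. Both T and L lay above C, each by 1.34-fold (edgeR adjusted p = 0.000712 and 0.000726). Abca9 rose 1.70-fold in T and 1.82-fold in L, from 2.08 ± 0.299 TPM in C to 3.86 ± 0.387 and 4.11 ± 0.586 TPM (SD, n = 3).

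The remaining tested Abca genes did not pass. Abca1, which loads cholesterol onto apolipoprotein A-I, had 40.4, 40.3 and 41.4 TPM in C, 41.1, 51.4 and 46.8 TPM in T, and 41.8, 46.1 and 35.7 TPM in L. All segments overlapped, with a log2 difference of 0.06 for T against C (95% interval -0.11 to 0.24) and -0.09 for L against C (95% interval -0.27 to 0.08). Abca3, which fills lamellar bodies with surfactant lipid in the lung, had 37.0, 38.6 and 35.2 TPM in C, 45.1, 41.1 and 43.9 TPM in T, and 42.6, 41.3 and 43.5 TPM in L. Its T and L values lay above those of C without overlap, yet the log2 differences of 0.11 and 0.10 in counts did not pass by edgeR (adjusted p = 0.228 and 0.271). By limma on log2(TPM + 1) they were 0.22 and 0.20 and passed (adjusted p = 0.0155 and 0.0303). Abca5 spread more within segments than between them, from 12.5 to 26.3 TPM within T. Without T replicate 1, its lowest T library, it was higher in T than in C (log2 0.48, edgeR adjusted p = 0.000203) and lower in L than in T (log2 -0.32, adjusted p = 0.0141).

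Organellar Abcb transporters moved apart from P-glycoprotein. Abcb10, of the inner mitochondrial membrane, had 32.4, 30.3 and 30.5 TPM in C, 26.7, 24.6 and 23.4 TPM in T, and 28.8, 25.3 and 26.9 TPM in L, so C lay above the others. It fell 1.36-fold in T and 1.24-fold in L relative to C (edgeR adjusted p = 0.000472 and 0.00688), and the fall in L did not pass by limma on log2(TPM + 1) (adjusted p = 0.0604). Abcb6, a porphyrin transporter, fell by a log2 of 0.59 in T and 0.45 in L, from 9.96 ± 0.405 TPM in C to 7.24 ± 1.12 and 7.83 ± 0.161 TPM (SD, n = 3). Abcb8, which is mitochondrial, and Abcb9, a lysosomal peptide transporter, did not pass in any comparison, with segment means of 13.3 to 15.8 and 4.98 to 5.31 TPM.

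Slc22a8 was highest in L. It encodes the organic anion transporter OAT3, which takes up anionic drugs and metabolites in kidney and choroid plexus. Levels were 1.62, 1.10 and 1.52 TPM in C, 1.92, 2.66 and 1.86 TPM in T, and 6.88, 8.18 and 7.25 TPM in L. Each L library exceeded each C and T library, and T lay just above C. Fibroblast markers also summed highest in L, at 16203 to 16609 TPM against 13665 to 14093 in C and 13667 to 14444 in T. Of 10 tested, 5 were higher and 2 lower in L than in C, and 6 higher and 2 lower in L than in T. Fn1 and Vim were the largest parts. Fn1 had 4304 to 4449 TPM in C, 5457 to 5789 in T and 6741 to 7150 in L. Vim was highest in C, at 5114 to 5181 TPM against 3996 to 4136 in L. The part of these markers in the level of Slc22a8 was not tested. Slc22a8 rose 4.84-fold from C to L (log2 2.27, SE 0.17, edgeR adjusted p = 1.35e-07) and 3.51-fold from T to L (log2 1.81, SE 0.17, edgeR adjusted p = 3.69e-06). T minus C was 0.46 (SE 0.19) and missed the threshold by edgeR (adjusted p = 0.0613), but passed by limma on log2(TPM + 1) (adjusted p = 0.046). Its neighbour Slc22a6, the anion transporter OAT1, had 2 counts in all 9 libraries. The promoter window of Slc22a8 is shown as that of the gene with the largest rise in L, and none of the exact letters searched has a match in it. Variants of these letters, such as the tatataag in this window, were not searched.
Slc22a8: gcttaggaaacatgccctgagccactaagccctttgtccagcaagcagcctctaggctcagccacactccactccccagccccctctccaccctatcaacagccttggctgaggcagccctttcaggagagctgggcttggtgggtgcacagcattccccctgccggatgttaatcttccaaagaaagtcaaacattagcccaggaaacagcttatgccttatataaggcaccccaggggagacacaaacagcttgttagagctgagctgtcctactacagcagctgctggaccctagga
This window, chr19:8592932-8593231 on the plus strand of GRCm38.p6, is 55% G and C.

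The other tested Slc22a genes changed less. Slc22a23, an orphan carrier and the most abundant of the family, had 43.0, 40.5 and 37.8 TPM in C, 27.1, 27.8 and 25.8 TPM in T, and 24.2, 25.2 and 21.8 TPM in L. C lay above both others, with falls of 1.68-fold to T and 1.87-fold to L (edgeR adjusted p = 1.12e-06 and 2.2e-07). Slc22a5, the carnitine transporter OCTN2, stood at 9.55 ± 0.154 TPM in C, 12.8 ± 1.33 TPM in T and 9.89 ± 0.470 TPM in L (SD, n = 3), a rise of 1.24-fold from C to T (edgeR adjusted p = 0.0209). Without C replicate 2 or T replicate 1, or with median centring in limma, that rise did not pass (adjusted p = 0.0639, 0.0785 and 0.0828). Slc22a21, also a carnitine transporter and its neighbour, rose 1.29-fold from C to L (edgeR adjusted p = 0.0314), a call lost without C replicate 2 or 3 or L replicate 1 or 2 (adjusted p = 0.0656 to 0.124), by DESeq2 (0.0755) and with median centring in limma (0.057). Both genes carry fractional counts, so reads were divided between them too. Slc22a18, an imprinted gene, rose 1.51-fold from C to T, from 7.49 ± 1.39 to 12.6 ± 2.11 TPM (SD, n = 3; edgeR adjusted p = 0.0117). Slc22a4, Slc22a15 and Slc22a17 did not pass in any comparison. By limma on log2(TPM + 1), Slc22a15 was higher in L than in C (adjusted p = 0.0161) and Slc22a5 lower in L than in T (0.0409), and without T replicate 1 Slc22a4 was lower in L than in T (edgeR adjusted p = 0.0414). The cation extruder Slc47a1, a gene of the arachnoid barrier, had 1 count in C, 15 in T and 2 in L, too few to test.

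All 4 tested Slco genes were lower in L than in T, beside 8.21% of all genes tested, and for Slco1a5 and Slco1c1 that call was lost without single libraries. Slco1a5, an organic anion transporting polypeptide for bile acids and thyroid hormone, had 11.7, 11.7 and 11.2 TPM in C, 5.60, 7.75 and 6.69 TPM in T, and 3.91, 5.59 and 3.95 TPM in L. C lay well above the others, and T and L were close but did not overlap. It fell 1.81-fold in T (edgeR adjusted p = 0.000192) and 2.68-fold in L relative to C (log2 fell by 1.42, SE 0.15, edgeR adjusted p = 3.61e-06). The fall of 1.48-fold from T to L (edgeR adjusted p = 0.0254) did not pass without T replicate 2 or 3 or L replicate 1 or 3 (adjusted p = 0.0704 to 0.115). Slco1a5 and Abcc4 were the only tested transporters that passed downward in all 3 comparisons, and their windows are shown for that reason.
Slco1a5: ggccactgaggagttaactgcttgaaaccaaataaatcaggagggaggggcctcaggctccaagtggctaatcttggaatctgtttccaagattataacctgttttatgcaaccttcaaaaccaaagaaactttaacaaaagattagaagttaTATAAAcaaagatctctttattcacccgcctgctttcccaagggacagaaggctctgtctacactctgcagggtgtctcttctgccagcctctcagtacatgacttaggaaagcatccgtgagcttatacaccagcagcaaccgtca
Abcc4: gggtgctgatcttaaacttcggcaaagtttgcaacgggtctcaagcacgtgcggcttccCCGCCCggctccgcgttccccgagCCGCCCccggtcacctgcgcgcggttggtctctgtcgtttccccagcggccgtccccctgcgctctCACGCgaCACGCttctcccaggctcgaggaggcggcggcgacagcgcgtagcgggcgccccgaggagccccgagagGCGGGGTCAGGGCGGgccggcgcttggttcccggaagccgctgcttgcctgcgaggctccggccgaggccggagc
The Slco1a5 window, chr6:142322932-142323231 on the minus strand, is 44.3% G and C. It holds a TATA box match at bases 154 to 159, which begins at -97 from the annotated start. The Abcc4 window, chr14:118706170-118706469 on the minus strand, is 72.7% G and C, with 3 GC boxes, 2 xenobiotic cores and 1 antioxidant core. Each gene has 2 annotated windows on GRCm38.p6, and the outermost was taken.

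Slco2a1, the prostaglandin transporter, had 9.27, 10.3 and 9.62 TPM in C, 10.9, 10.9 and 10.3 TPM in T, and 3.62, 5.08 and 6.72 TPM in L. Each L library lay below all others, and C and T overlapped. It fell 2.12-fold from C to L (log2 fell by 1.09, SE 0.14, edgeR adjusted p = 2.64e-05) and 2.14-fold from T to L (edgeR adjusted p = 9.13e-05), with a log2 of 0.01 between T and C (95% interval -0.28 to 0.30). Macrophage and astrocyte marker sums were lowest in L as well, as given above, and their part in this was not tested. Slco3a1, a broadly expressed anion carrier, had 79.2, 75.9 and 75.6 TPM in C, 72.1, 75.0 and 70.1 TPM in T, and 56.3, 57.6 and 55.9 TPM in L. L lay below both others, by 1.37-fold against C (edgeR adjusted p = 1.86e-05) and 1.28-fold against T (edgeR adjusted p = 0.000548). With median centring in limma it was also lower in T than in C (adjusted p = 0.00518). Slco1c1, a thyroid hormone carrier of brain barriers, was highest in T, at 1.07, 0.634 and 0.995 TPM in C, 2.35, 2.40 and 1.78 TPM in T, and 1.16, 1.21 and 0.782 TPM in L. It rose 2.27-fold from C to T (edgeR adjusted p = 0.00191) and fell 2.14-fold from T to L (edgeR adjusted p = 0.012), the latter lost without L replicate 3 (adjusted p = 0.0642). C and L overlapped, and their log2 difference of 0.08 did not pass (95% interval -0.56 to 0.73).

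**Figure D4:**
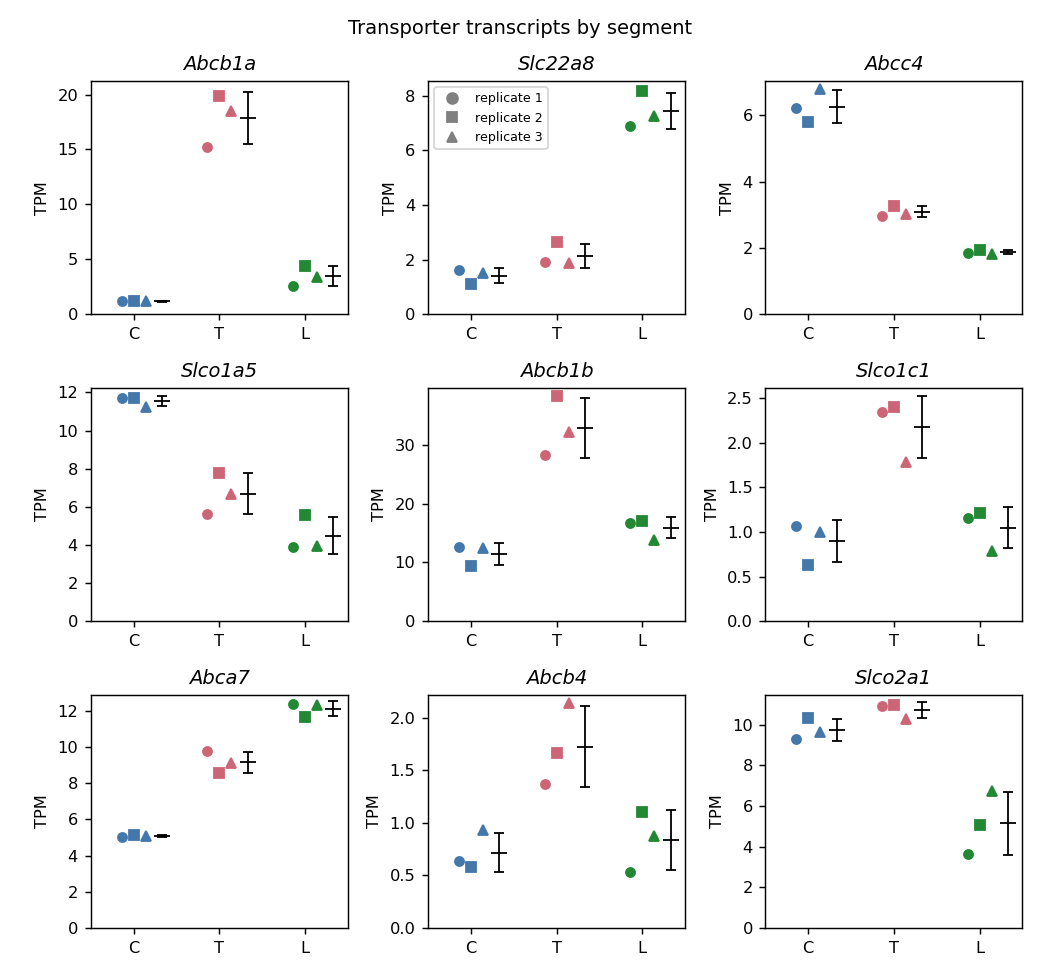
TPM per library (vertical axis from 0) of the 9 transporter genes that passed the F test and changed by a log2 of at least 1 in some comparison. Symbols are replicates, and black bars give mean and SD of 3 libraries. T is highest for Abcb1a, Abcb1b, Abcb4 and Slco1c1, L is highest for Slc22a8 and Abca7 and lowest for Slco2a1, and C is highest for Abcc4 and Slco1a5.

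Summed over families, the level per library was set by the few abundant genes. Abcg genes summed to 103 to 109 TPM in C, 142 to 164 in T and 118 to 123 in L, almost all of it Abcg2. Abcb genes summed to 74.0 to 79.2 TPM in C, 106 to 118 in T and 79.2 to 83.7 in L, and Abcc genes to 83.2 to 85.5, 116 to 121 and 113 to 121 TPM. Slco genes ran lower in L, at 98.4 to 102 TPM in C, 90.1 to 97.4 in T and 65.6 to 71.4 in L. Slc22a genes summed to 76.1 to 81.5, 78.3 to 81.4 and 73.1 to 76.7 TPM. Here C overlapped with both T and L, and single members changed in both directions.

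Of 83 transporter genes placed in RefSeq, 41 stood next to another in 14 runs along the chromosomes. Abcb1a, Abcb1b and Abcb4 were all higher in T than in C and lower in L than in T. For Abcb4, which passed the filter through T, the call for L against T was lost without single libraries. In the run of Slc22a5, Slc22a21 and Slc22a4, the first passed in T against C, the second in L against C and the third in neither. Slc22a8 lies in a run of 8 Slc22a genes in which it alone had enough transcript to test. In the run of Abca8b, Abca8a, Abca9, Abca6 and Abca5, Abca9 passed upward and Abca5 did not pass.

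Below the expression filter, 31 genes had at least 1 count, and 11 of the 85 had 1 to 3 counts in all. Lowering the filter to 0.1 TPM in at least 3 libraries added 13 transporters to the test, of which 6 passed the F test. Over all genes at this filter 7628 of 14845 passed (51.4%), against 7018 of 12553 at the first filter. Most of the 14845 had passed the first filter too, so the share among the added genes alone is lower than 51.4%. Abcg1, a cholesterol exporter, stood at 0.973, 1.77 and 1.02 TPM in C, 0.746, 0.338 and 0.443 TPM in T, and 0.25, 0.232 and 0.362 TPM in L, with C above both others (edgeR adjusted p = 0.000413 by the F test). Abcc12 had 84 counts in C, 46 in T and 8 in L (adjusted p = 0.000163). Abca8a had 50 counts in C, 10 in T and 4 in L (adjusted p = 0.0061), and Slco1a6 had 22, 5 and 3 (adjusted p = 0.042). Abcc6, deficient in pseudoxanthoma elasticum, had 21 counts in C, 67 in T and 42 in L (adjusted p = 0.00973), and Slc22a2, the cation transporter OCT2, had 6, 27 and 20 (adjusted p = 0.0424). Slco1a4, a carrier of the blood-brain barrier, had 51, 44 and 41 counts and did not pass. Abcc9, the regulatory subunit of a potassium channel of mural cells, had 15, 7 and 12 counts, and the pore genes Kcnj8 and Kcnj11 were too low to test.

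Sensors and cofactors known to control such transporters changed in both directions. Of 12 tested nuclear receptors, xenobiotic sensors and their partners, 6 rose and 1 fell from C to T, 4 were higher and 2 lower in L than in C, and 2 were lower in L than in T. The shares called, 58.3% for T against C and 50% for L against C, lie near the background of 51.1% and 49.6%. Arnt, partner of the aryl hydrocarbon receptor, rose 1.45-fold in T and 1.56-fold in L, from 43.3 ± 1.71 to 69.2 ± 5.54 and 73.5 ± 4.83 TPM (SD, n = 3). Rxra, the shared partner of many nuclear receptors, rose 1.41-fold and 1.46-fold. Ahr, the aryl hydrocarbon receptor, was highest in T, at 18.7 ± 2.26 TPM against 13.1 ± 1.01 in C and 13.1 ± 1.00 in L, and both differences passed. Pparg, a lipid-sensing receptor, fell 2.85-fold in T and 2.65-fold in L from 2.36 ± 0.679 TPM. The drug sensors Nr1i2 and Nr1i3 were not among the tested genes.

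Of 23 tested enzymes of drug metabolism, 13 were lower and 5 higher in T than in C, 14 lower and 4 higher in L than in C, and 10 lower and 2 higher in L than in T. Over all genes tested, 25.2% were lower and 25.8% higher in T than in C, 25.2% and 24.4% in L than in C, and 8.21% and 7.88% in L than in T. The enzymes had a median log2 of -0.48, -0.65 and -0.12. Aldh1a1, a retinaldehyde dehydrogenase, fell 2.12-fold in T and 11.5-fold in L relative to C, with 70.5 ± 4.71, 37.0 ± 3.65 and 6.95 ± 0.681 TPM (SD, n = 3). Nqo1, a quinone reductase, fell 3.70-fold and 7.60-fold from 283 ± 7.59 TPM in C. Sult1a1, a phenol sulfotransferase, rose 8.17-fold and 7.53-fold, from 1.91 ± 0.466 TPM to 16.4 ± 2.98 in T and 15.3 ± 1.34 in L. Aldh1a7 did not pass from C to T and fell 4.40-fold from C to L.

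Among 16 tested partners of cholesterol efflux, 4 rose and 5 fell from C to T, 3 were higher and 4 lower in L than in C, and 4 higher and 2 lower in L than in T. The shares called were 56.2% for T against C and 43.8% for L against C, near the background of 51.1% and 49.6%, and 37.5% for L against T, where the background was 16.1%. Lcat, which esterifies cholesterol on lipoproteins, fell 1.70-fold in T and 4.62-fold in L, from 5.10 ± 0.189 TPM (SD, n = 3), and Apod fell 3.02-fold and 1.83-fold from 143 ± 2.44 TPM. Clu (clusterin) was highest in T, at 43.3 ± 2.02 TPM against 27.3 ± 1.46 in C and 20.8 ± 1.17 in L, and Pltp, a phospholipid transfer protein, was highest in L, at 73.8 ± 6.25 TPM. Of 5 tested scaffold proteins that anchor transporters, 3 were lower in T than in C and none higher (25.2% of all genes tested were lower). Msn (moesin) fell 2.53-fold, from 999 ± 59.0 to 431 ± 26.8 TPM, and Ezr (ezrin) 1.65-fold. In L, 2 of the 5 were lower and 1 higher than in C (25.2% and 24.4% of all genes tested). Msn was 2.08-fold and Ezr 1.91-fold lower in L than in C, and Nherf1, a PDZ scaffold, was 1.22-fold higher.

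Other barrier carriers were compared for context. Among 14 tested nucleoside, peptide and monocarboxylate carriers, 4 rose and 7 fell from C to T, 4 were higher and 5 lower in L than in C, and 3 higher and 1 lower in L than in T. These are shares of 78.6%, 64.3% and 28.6%, beside 51.1%, 49.6% and 16.1% of all genes tested. Slc16a3, a lactate exporter, was lowest in T, at 2.26 ± 0.307 TPM against 22.0 ± 1.67 in C and 10.9 ± 1.18 TPM in L, a fall of 9.34-fold from C to T. Slc16a7, also a monocarboxylate transporter, rose 2.53-fold in T and 3.42-fold in L from 4.09 ± 0.900 TPM in C. Slc16a1, a monocarboxylate transporter, was highest in T, at 35.5 ± 3.04 TPM against 11.6 ± 0.673 in C and 17.9 ± 1.51 in L (SD, n = 3). Mfsd2a, a lysolipid carrier, fell 4.55-fold in T and 8.81-fold in L relative to C, with a wide spread in L (1.30 ± 1.77 TPM). Of 9 tested ABC genes outside the 4 subfamilies, 4 (44.4%) were higher and none lower in T than in C. Over all genes tested, 51.1% were called in that comparison and 25.8% were higher in T. In L, 2 of the 9 were higher and 1 lower than in C (24.4% and 25.2% of all genes tested). In L against T, 1 was lower (8.21% of all genes tested). Those higher in T than in C included Tap2, a peptide transporter of antigen presentation, at 1.28-fold, and Abcd3, a peroxisomal transporter, at 1.24-fold.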

How the data were processed

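Per gene and library, the authors deposited an estimated count and a TPM value, 18 value columns in all, each of which was used. HISAT2 2.2.1, FastQC 0.11.9, StringTie 2.1.4, Trimmomatic 0.39, DESeq2 1.32.0 and the builds GRCm39 and GRCh38 appear, without role or order, in the submitters' processing notes. Annotation and strand setting are not stated, so values of overlapping genes are uncertain. Per the labels' protocols, RNA was extracted with TRIzol and libraries came from a stranded total RNA kit. Groups and replicate numbers follow the sample titles. For L replicate 3 the description points to another L column, and the title decided.

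The deposited estimated counts, 92.7% of them exactly whole, were rounded. The 12553 genes that reached 1 TPM in 3 or more libraries entered a single fit of all 9 libraries with the edgeR quasi-likelihood model (edgeR 4.0.16, R 4.3.3), TMM scaling and no term but the segment. All p-values are two-sided and were adjusted by Benjamini-Hochberg across the genes tested, with a threshold of 0.05. Standard errors and 95% intervals come from the fold change, the F statistic and its degrees of freedom. Fold changes rest on counts and TPM on abundances, so their ratios can differ. Limits for 0 counts cover counting error only. The procedure was tested on simulated counts. Alternatives were DESeq2 1.42.0, RLE scaling, other filters, limma 3.58.1 on log2(TPM + 1) or log2(TPM + 0.1), median centring, a replicate block and leaving out each library.

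The genes and lists were chosen with earlier results of these data known. Values per library are given for genes past the F test with a log2 change of at least 1 and for the 10 with the highest mean TPM. Partner lists give up to 4 members past the F test with the largest change. Promoter windows come from RefSeq on GRCm38.p6, which differs from the builds named, and no other coordinates are given. A few genes that entered the counts are not reported here by name, nor drawn.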

Additional observations from a re-analysis of the deposited data

How the results depend on the processing

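Each of the 33 tested transporters was refitted in 3 comparisons under 17 alternatives, and the Abcb1 pair was summed, which makes 1686 values. Of these 1633 kept their side of the threshold, 34 no longer passed, 19 newly passed and none turned a call round. Differences that passed in neither fit are among the 1633 even where their sign changed. The number of transporters called for L against T was 11, and 7 to 13 when single libraries were left out, the lowest without L replicate 3. For L against C it was 17 to 19 and for T against C 17 to 19, beside 19 in each. By the other settings the counts were 18 to 21 for T against C, 15 to 20 for L against C and 11 to 12 for L against T. Over all genes, leaving out single libraries gave 5451 to 6958 calls for T against C, 5221 to 6890 for L against C and 1412 to 2437 for L against T. The replicate block, which takes equal replicate numbers as pairs, left all 99 values, 33 genes in 3 comparisons, on their side of the threshold and gave 19, 19 and 11. Correlations of same-numbered libraries ran from -0.263 to 0.465, and those of other pairs from -0.508 to 0.524. With so few libraries a segment, these values cannot tell whether equal numbers share an animal or a batch. Depth limits the genes below the filter, 31 with counts and 21 at 0.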

Other observations

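A few transporters spread widely within a segment. Slco1a4 had 0.383, 1.71 and 0.481 TPM in L, with L replicate 2 above every other library. Abcg4 had 5.54, 5.32 and 8.32 TPM in T, with T replicate 3 above every other library. Abcc10 had 4.24, 3.91 and 5.84 TPM in L. With 3 libraries a segment, such values were not tested as outliers, and their causes were not tested.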
